A study of Gallus gallus with 3 samples.

Results

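MYOG+ cells of the E10 chicken forelimb were taken from the raw UMI counts of 1 single-cell library. A UMI (unique molecular identifier) stands for 1 captured mRNA molecule, and a barcode stands for the droplet it came from. A barcode was kept with at least 450 UMIs and at most 16% of its UMIs from 8 mitochondrial genes, and it was a MYOG+ cell with at least 1 MYOG UMI and under 5% of its UMIs from 8 contractile genes (ACTC1, ACTA1, MYL1, MYL4, TNNC1, TNNC2, TNNI1 and TNNT3). This gave 1031 MYOG+ cells of 25507 kept E10 cells, or 4.04% (exact binomial 95% interval 3.80 to 4.29%), and of 35123 kept cells in the whole series. They were set against 2161 PAX7+ cells with 0 MYOG UMIs from the same library, named PAX7+ MYOG- cells here. MYOG, PAX7 and the contractile and mitochondrial genes chose these groups, so their values are a description.

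The series covers the forelimb of untreated chicken embryos at E4 (2 embryos pooled), E6 (3 embryos) and E10 (3 embryos), in 1 library per stage. Cells of 1 library are not replicates, so no test was made, no p-value is given, and all intervals cover counting error only. The limbs were dissociated with collagenase and by mechanical treatment, and 5000 cells per condition were loaded. At E10, 25507 barcodes were kept, more than the cells loaded, and whether each kept barcode is 1 cell was not tested. Scrublet scores barcodes for likeness to simulated pairs of cells. The 5205 E10 barcodes (20.4%) with the highest scores were marked, a count fixed by the share expected for this number. Among them were 115 MYOG+ cells (11.2%) and 237 PAX7+ MYOG- cells (10.97%). Scrublet's own threshold marked 907 E10 barcodes (3.56%), 49 MYOG+ cells (4.75%) and 122 PAX7+ MYOG- cells (5.65%), so the order of these shares depended on the threshold. Later shares of marked cells use the expected share. Of the kept E10 barcodes, 33 were also kept at E4, among them 4 MYOG+ cells, and 36 at E6, with no MYOG+ cell among them. The library held 46497874 UMIs. A median MYOG+ cell held 1411 UMIs and 764 genes, and a median PAX7+ MYOG- cell held 1440 UMIs and 799 genes. The groups summed to 1611819 UMIs in MYOG+ cells and 3423270 UMIs in PAX7+ MYOG- cells.

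Limb muscle arises in steps that these genes mark. PAX7 marks the progenitors that go on dividing, MYF5 and MYOD1 commit cells to the muscle lineage, and MYOG (myogenin) is the basic helix-loop-helix factor needed for myoblasts to differentiate and form fibres. Differentiating cells, called myocytes, leave the cell cycle, take up the surface proteins that let them fuse, and then build sarcomeres inside the multinucleate fibre, which is largely lost when tissue is dissociated into single cells.

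Most MYOG+ cells carried a single MYOG UMI. There was 1 MYOG UMI in 681 cells (66.1%), 2 in 214 cells (20.8%) and 3 or more in 136 cells (13.2%). The 3 MYOG+ cells nearest to the contractile limit held 4.99%, 4.92% and 4.80% contractile UMIs, and the 3 nearest MYOG+ barcodes beyond it held 5.61%, 5.71% and 6.00%. In all, 17 MYOG+ barcodes lay beyond this limit, the highest at 16.4%, against a median of 0.199% in the MYOG+ cells kept. The shallowest MYOG+ cell held 455 UMIs and the nearest barcode under the UMI limit held 449. At the mitochondrial limit, the values were 15.99% inside and 16.06% outside, and 70 MYOG+ barcodes lay beyond it. As a background, a MYOG UMI was found in 5 of 960 cells of endothelial, leukocyte, ectoderm and blood type (0.521%, 0.169 to 1.21%, median 1363.5 UMIs). It was also found in 16 of 2482 cells with at least 5% of their UMIs from 20 connective tissue (CT) genes (0.645%, 0.369 to 1.04%, median 1107.5 UMIs). Neither group left out MYOG+ cells. As a share of all kept E10 cells, MYOG+ cells were 4.04%, and the part of this background in them was not tested. With 16 MYOG+ cells at 5% or more CT gene UMIs, the CT cells are not separate from the MYOG+ cells.

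Against PAX7+ MYOG- cells, MYOG+ cells had higher levels of RNA-binding and transcription factors of muscle differentiation, of fusion and acetylcholine receptor genes and of early sarcomere genes, and lower levels of the Notch receptor gene NOTCH2 and the Notch targets HEYL and HES1, of ID1 and ID3 and of the summed S phase genes, while NOTCH1 was higher. Levels are CPM, a count scaled to a fixed total, in which the UMIs of all cells in a group were added up before scaling. Ratios are log2 of the CPM in MYOG+ over the CPM in PAX7+ MYOG- cells, with exact 95% intervals. Among 7131 genes with at least 50 UMIs over both groups, rule genes left out, 347 (4.87%) were at least 2-fold higher in MYOG+ cells and 591 (8.29%) at least 2-fold lower. The median log2 ratio of these genes was -0.11, with quartiles of -0.47 and 0.20. With at least 2 MYOG UMIs required, these counts were 365 higher and 1251 lower, so that it was the count of lower genes that moved. The MYOG+ group was then smaller, so genes near the minimum of 50 UMIs had few UMIs in it. The part of this in the count was not tested. In the main counts, too, MYOG+ cells held fewer UMIs than PAX7+ MYOG- cells (1611819 against 3423270). With at least 100 UMIs over both groups, 246 genes were higher and 354 lower. The part of the unequal totals in these counts was not tested. The shares of 4.87% higher and 8.29% lower are the background for the counts of each gene list below.

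**Figure D1:**
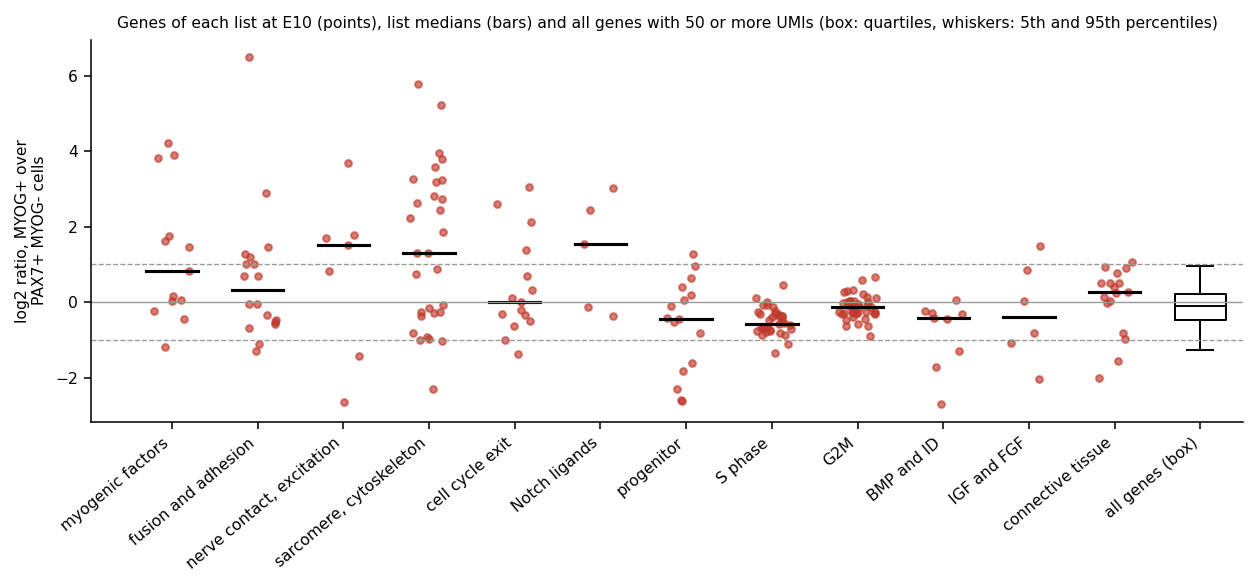
The log2 CPM ratio (vertical axis) of MYOG+ over PAX7+ MYOG- cells is drawn for every gene with at least 50 UMIs in 12 gene lists, with a bar at each list's median, beside a box of all such genes. The medians of the nerve contact, sarcomere and Notch ligand lists lay above 1. Those of the S phase, progenitor, BMP, IGF and FGF, and G2M lists lay below the all-gene median of -0.11, with G2M closest to it at -0.13.

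Of 13 myogenic factor genes measured, 6 were at least 2-fold higher and 1 was lower in MYOG+ cells, with a list median of 0.83. RBM24, an RNA-binding protein that controls splicing of muscle transcripts, had 5841 UMIs in MYOG+ cells and 665 UMIs in PAX7+ MYOG- cells. The levels of RBM24 were 3624 CPM and 194 CPM, a log2 ratio of 4.22 (4.11 to 4.34). MYOD1 was at 962 CPM in MYOG+ cells and 287 CPM in PAX7+ MYOG- cells, a log2 ratio of 1.74 (1.63 to 1.86). The 2005 cells with MYOD1 UMIs but no PAX7 or MYOG UMIs, in which MYOD1 is above 0 by choice, were at 1251 CPM for MYOD1 and at 1691 CPM for RBM24. The RNA-binding gene RBM38 was at 402 CPM in MYOG+ and 26.9 CPM in PAX7+ MYOG- cells (log2 ratio 3.90, 3.59 to 4.23), and MEF2C, a partner of the myogenic factors, was at 78.8 CPM in MYOG+ and 5.55 CPM in PAX7+ MYOG- cells (3.83, 3.13 to 4.61). MEF2C was higher still, at 722 CPM, in the 71 cells with at least 5% contractile UMIs, which are named contractile cells here. A median contractile cell held only 718 UMIs and 462 genes. MEF2D and the cofactor VGLL2 had log2 ratios of 1.46 (1.13 to 1.79) and 1.63 (1.27 to 1.99), while TCF12, the E protein that pairs with MYOD1, was at -0.23 (-0.31 to -0.15).

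MYF6, the fourth myogenic regulatory factor, went the other way. It had 46 UMIs in MYOG+ cells and 222 in PAX7+ MYOG- cells, or 28.5 CPM in MYOG+ against 64.9 CPM in PAX7+ MYOG- cells, a log2 ratio of -1.18 (-1.68 to -0.72). With at least 2 MYOG UMIs the MYF6 ratio was -1.93. Contractile cells, with 188 CPM, stood above both groups. MYF5 was nearly absent, with 8 UMIs in MYOG+ cells (4.96 CPM) against 105 UMIs in PAX7+ MYOG- cells (30.7 CPM), a log2 ratio of -2.63 (-3.88 to -1.60).

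By co-detection, 611 MYOG+ cells (59.3%) also had a MYOD1 UMI without PAX7 or MYF5, and 357 (34.6%) had no UMI of these 3 factors. PAX7 was found in 59 MYOG+ cells, 35 of them with MYOD1, 22 without, and 2 with both MYOD1 and MYF5. With every cell thinned to 600 UMIs to remove depth differences, a MYOD1 UMI was found in 41.0% of 995 MYOG+ cells (37.9 to 44.1%), against 13.2% of 2125 PAX7+ MYOG- cells (11.8 to 14.7%). In the endothelial, leukocyte, ectoderm and blood cells this share was 1.58%. Unthinned, it was 63.2% of MYOG+ and 25.9% of PAX7+ MYOG- cells. A further 20 draws gave 37.3 to 41.9% in MYOG+ cells and 12.5 to 14.4% in PAX7+ MYOG- cells, so the groups stayed apart. A PAX7 UMI was found in 5.72% of MYOG+ cells (4.38 to 7.32%), and in 2.41% at 600 UMIs (1.55 to 3.57%), above the 0.226% of the other types (up to 0.813%).

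MYMK (myomaker), the membrane protein needed for myoblasts to fuse, had the largest ratio of the fusion genes measured. It had 510 UMIs in MYOG+ cells and 12 UMIs in PAX7+ MYOG- cells, or 316 CPM in MYOG+ against 3.51 CPM in PAX7+ MYOG- cells, a log2 ratio of 6.50 (5.68 to 7.46). The ratio was 7.16 with at least 2 MYOG UMIs required, 7.34 without CT marker cells and 8.01 without the highest Scrublet scores. MYOD1+ cells without PAX7 and MYOG were at 62.8 CPM and contractile cells at 31.4 CPM, the latter from 2 of 71 cells with a MYMK UMI. A MYMK UMI was found in 29.3% of MYOG+ cells (26.5 to 32.2%), 0.324% of PAX7+ MYOG- cells and 0.313% of the other types, and at 600 UMIs in 16.2% of MYOG+ cells, 0.188% of PAX7+ MYOG- cells and 0.113% of the other types. Read from the other side, 545 of all kept E10 cells had a MYMK UMI, and 302 of them (55.4%, 51.1 to 59.6%) were MYOG+ cells. The same count for RBM24 was 868 of 3939 cells. At 600 UMIs an RBM24 UMI was found in 75.8% of MYOG+ cells (73.0 to 78.4%), 43.3% of MYOD1+ PAX7- MYOG- cells (41.1 to 45.5%) and 8.47% of PAX7+ MYOG- cells (7.32 to 9.74%), against a background of 4.85% in the other types (3.53 to 6.48%).

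Of 18 fusion and adhesion genes measured, 7 were at least 2-fold higher and 2 lower, with a median of 0.31. Over all 7131 genes, 4.87% were higher and 8.29% lower. JAM3, a junctional adhesion molecule, was at 1473 CPM in MYOG+ cells against 198 CPM in PAX7+ MYOG- cells (log2 ratio 2.89, 2.77 to 3.02). NCAM1, an adhesion molecule of nerve and muscle, was at 710 CPM in MYOG+ and 292 CPM in PAX7+ MYOG- cells (1.28, 1.16 to 1.41). The cadherins were less apart, with log2 ratios of 1.0 (0.79 to 1.21) for CDH15, the muscle cadherin, and 1.01 (0.84 to 1.17) for CDH2. The lower genes were BOC, a cell surface co-receptor of myoblasts, at -1.29 (-1.74 to -0.86), and KIRREL1, whose fly relatives act in myoblast fusion, at -1.11 (-1.86 to -0.41).

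Of 7 genes of nerve contact and excitation with enough UMIs, 4 were higher and 2 lower, with a median of 1.51. CHRNG, the gamma subunit of the foetal acetylcholine receptor, had 200 UMIs (124 CPM) in MYOG+ cells and 33 UMIs (9.64 CPM) in PAX7+ MYOG- cells, a log2 ratio of 3.69 (3.15 to 4.26). Its partners were too low to enter the count. CHRNA1 had 38 UMIs in MYOG+ and 5 in PAX7+ MYOG- cells, and CHRND had 35 in MYOG+ and 5 in PAX7+ MYOG- cells. RAPSN, which anchors the receptor under the synapse, was at 57.1 CPM in MYOG+ and 17.5 CPM in PAX7+ MYOG- cells (1.70, 1.22 to 2.20). CACNG1, a calcium channel subunit, had a log2 ratio of 1.77 (1.40 to 2.14), and ATP2A2, a calcium pump of the reticulum, 0.83 (0.65 to 1.02). Unlike these, the calcium release channel RYR3 had 11 UMIs in MYOG+ and 147 in PAX7+ MYOG- cells (-2.65, -3.69 to -1.77), and JPH1, which ties the reticulum to the surface membrane, was at -1.43 (-2.5 to -0.49).

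Sarcomere and cytoskeleton genes split by kind. Of 30 measured, 16 were at least 2-fold higher and 3 lower, with a median of 1.30. DES, the muscle intermediate filament, was at 137 CPM in MYOG+ cells and 20.7 CPM in PAX7+ MYOG- cells (log2 ratio 2.72, 2.33 to 3.13), and contractile cells were at 1774 CPM. TNNT2, the cardiac troponin T of early skeletal muscle, was at 59.6 CPM in MYOG+ and 4.97 CPM in PAX7+ MYOG- cells (3.58, 2.83 to 4.42). UNC45B, the chaperone that folds myosin, had 155 UMIs in MYOG+ and 6 in PAX7+ MYOG- cells (5.78, 4.62 to 7.25), and MYBPH, a myosin-binding protein, had 176 in MYOG+ and 10 in PAX7+ MYOG- cells (5.22, 4.31 to 6.31). The Z-disc and filament genes ACTN2 (2.81, 2.31 to 3.34) and NEXN (3.27, 2.80 to 3.77), the filament-stabilising KLHL41 (3.95, 2.99 to 5.07) and the creatine kinase gene CKB (3.79, 3.61 to 3.97) were also higher. For DES, TNNT2, UNC45B, MYBPH, ACTN2 and NEXN, the contractile cells stood above the MYOG+ cells.

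The non-muscle actins were lower. ACTB was at 2500 CPM in MYOG+ cells and 4733 CPM in PAX7+ MYOG- cells (-0.92, -0.97 to -0.87), and ACTG1 at 1174 CPM in MYOG+ and 2073 CPM in PAX7+ MYOG- cells (-0.82, -0.89 to -0.75). CSRP2, a LIM protein, was at -1.0 (-1.14 to -0.86), the tropomyosin gene TPM3 at -1.02 (-1.20 to -0.85), CSRP1 at -2.31 (-2.97 to -1.72) and VIM, the intermediate filament of immature cells, at -0.29 (-0.38 to -0.21). Since ACTB and ACTG1 are abundant, the summed level of the list was lower, at 8331 CPM in MYOG+ and 10109 CPM in PAX7+ MYOG- cells, although its median was above 0. The contractile genes of the rule were limited by choice in MYOG+ cells. ACTC1, the cardiac actin of early muscle, made up most of their UMIs, with 6755 UMIs (4191 CPM) in MYOG+ cells against 336 UMIs (98.2 CPM) in PAX7+ MYOG- cells. ACTA1, the adult skeletal actin, had 137 UMIs (85.0 CPM) in MYOG+ and 115 UMIs (33.6 CPM) in PAX7+ MYOG- cells, a log2 ratio of 1.34 (0.97 to 1.71).

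**Figure D2:**
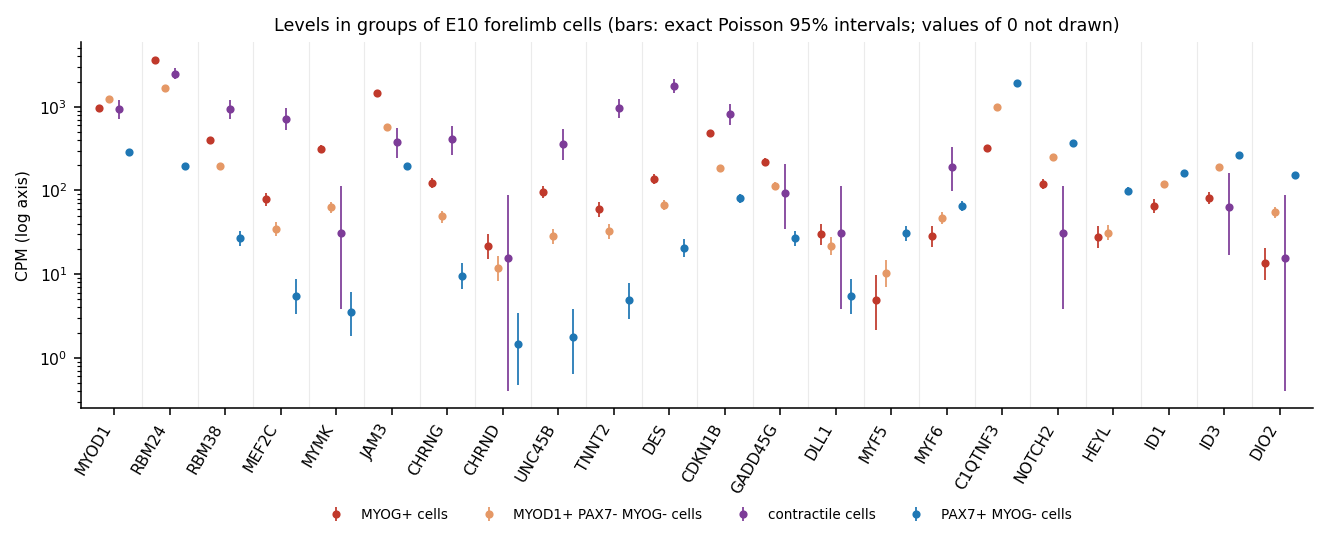
CPM on a log axis with exact Poisson 95% intervals is drawn for 22 genes in MYOG+ cells, MYOD1+ PAX7- MYOG- cells, contractile cells and PAX7+ MYOG- cells of E10. MYMK stood at 316 CPM in MYOG+ cells, above the 62.8, 31.4 and 3.51 CPM of the other groups, while DES and MEF2C were highest in contractile cells. The 31.4 CPM of contractile cells came from 2 of 71 cells with a MYMK UMI.

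Cell cycle genes did not follow a single direction. Of 15 genes of cell cycle control, 4 were at least 2-fold higher and 1 was lower. Over all 7131 genes these shares were 4.87% higher and 8.29% lower. CDKN1B, the inhibitor p27 of the cyclin-dependent kinases, was at 489 CPM in MYOG+ and 80.6 CPM in PAX7+ MYOG- cells (2.60, 2.40 to 2.80). The growth arrest genes GADD45G (3.04, 2.71 to 3.39) and GADD45A (2.12, 1.88 to 2.36) and the antiproliferative gene BTG1 (1.37, 1.23 to 1.51) were higher as well. CDK6, a kinase of G1, was lower, at 235 CPM in MYOG+ and 613 CPM in PAX7+ MYOG- cells (-1.38, -1.54 to -1.22), with a ratio of -2.27 at 2 or more MYOG UMIs, and the cyclin genes CCND1 and CCND2 had log2 ratios of -0.32 (-0.48 to -0.16) and -0.63 (-0.87 to -0.40). CDKN1A, the inhibitor p21, was hardly detected, with 3 UMIs in MYOG+ and 20 UMIs in PAX7+ MYOG- cells.

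Of 36 S phase genes, none was 2-fold higher and 2 were lower. Over all 7131 genes 8.29% were lower, so this count is no result about the S phase list. The summed level of the S phase genes was 2968 CPM in MYOG+ and 4419 CPM in PAX7+ MYOG- cells (-0.57, -0.62 to -0.53). The replication genes PCNA and NASP were at -0.69 (-0.83 to -0.55) and -0.77 (-0.91 to -0.64), and the chromatin genes UHRF1 and UBR7 at -0.25 (-0.40 to -0.09) and -0.47 (-0.67 to -0.27). Of 41 G2M genes, none was 2-fold apart, and the sum was 7809 CPM in MYOG+ and 7974 CPM in PAX7+ MYOG- cells, a log2 ratio of -0.03 with an interval of -0.06 to 0.00. CDK1, the mitotic kinase, was at 0.26 (0.12 to 0.40), CENPF, of the kinetochore, at 0.02 (-0.11 to 0.15), HMGB2 at 0.32 (0.24 to 0.39) and TOP2A at -0.26 (-0.38 to -0.15). At 600 UMIs a cell, 26.3% of MYOG+ cells (23.6 to 29.2%) had at least 6 G2M UMIs, against 28.4% of PAX7+ MYOG- cells (26.5 to 30.4%). This share was 37.4% in MYOD1+ PAX7- MYOG- cells, 12.3% in the other cell types and 0 of 49 in contractile cells, with an upper limit of 6.12%. The rule thus took cells with cycle genes beside differentiating ones, while a myocyte has left the cycle, and the cells are called MYOG+ cells here.

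Among Notch ligands and modifiers, 3 of 5 were at least 2-fold higher in MYOG+ cells and none lower. In Notch signalling, a ligand on one cell activates a receptor on its neighbour, and in muscle this keeps progenitors from differentiating. The ligand JAG2 had 137 UMIs (85.0 CPM) in MYOG+ cells and 36 UMIs (10.5 CPM) in PAX7+ MYOG- cells (3.01, 2.48 to 3.59). The ligand DLL1 had 49 UMIs in MYOG+ and 19 in PAX7+ MYOG- cells (2.45, 1.66 to 3.30), and LFNG, which modifies the receptors, 80 in MYOG+ and 58 in PAX7+ MYOG- cells (1.55, 1.04 to 2.06). NUMB, an inhibitor of Notch, was at -0.38 (-0.90 to 0.12) and RFNG at -0.14 (-0.82 to 0.50), and both intervals include 0. JAG1, with 3 UMIs in MYOG+ and 44 in PAX7+ MYOG- cells, was under the minimum of 50.

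The Notch receptor genes stood on the list of progenitor genes and differed in sign. Of 16 progenitor genes measured, 5 were at least 2-fold lower and 1 was higher in MYOG+ cells, with a median of -0.44. NOTCH2 was at 120 CPM in MYOG+ cells and 365 CPM in PAX7+ MYOG- cells (-1.61, -1.83 to -1.39). The Notch targets HEYL (-1.82, -2.30 to -1.37) and HES1 (5 UMIs in MYOG+ and 52 in PAX7+ MYOG- cells, -2.29, -3.97 to -0.98) were lower too. NOTCH1 was higher in MYOG+ cells, at 341 CPM in MYOG+ and 176 CPM in PAX7+ MYOG- cells (0.95, 0.78 to 1.12). C1QTNF3, a secreted C1q and TNF related protein, was at 322 CPM in MYOG+ cells and 1949 CPM in PAX7+ MYOG- cells (-2.60, -2.73 to -2.47), with MYOD1+ PAX7- MYOG- cells at 989 CPM. With at least 2 MYOG UMIs its ratio was -3.64. FGFR4, the FGF receptor of limb myoblasts, was closer, at 391 CPM in MYOG+ and 520 CPM in PAX7+ MYOG- cells (-0.41, -0.55 to -0.28), and the integrin gene ITGB1 was at -0.11 (-0.23 to 0.02). The transcription cofactor EYA2 was the higher gene of the list (1.28, 0.97 to 1.59).

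ID proteins bind E proteins and so hold back the myogenic factors, and their genes respond to BMP signalling. Of 9 BMP and ID genes, 3 were at least 2-fold lower in MYOG+ cells and none higher. ID1 was at 65.8 CPM in MYOG+ and 163 CPM in PAX7+ MYOG- cells (-1.31, -1.62 to -1.0), and ID3 at 81.9 CPM in MYOG+ and 269 CPM in PAX7+ MYOG- cells (-1.72, -1.99 to -1.45). ID2 lay between the 2-fold limits, at 176 CPM in MYOG+ and 207 CPM in PAX7+ MYOG- cells (-0.23, -0.44 to -0.03), and the interval of ID4, at 26 UMIs in MYOG+ and 69 in PAX7+ MYOG- cells, includes 0 (-0.32, -1.03 to 0.35). With at least 2 MYOG UMIs the ratios were -2.19 for ID1, -2.5 for ID3 and -1.57 for ID4, and ID4 was at -3.06 without CT marker cells. The receptor BMPR1B had 13 UMIs in MYOG+ and 181 in PAX7+ MYOG- cells (-2.71, -3.65 to -1.90), while SMAD5, which carries the BMP signal into the nucleus, was at 0.05 (-0.14 to 0.24). Of 6 IGF and FGF genes, IGFBP2 (-2.03, -2.40 to -1.69) and IGFBP4 (-1.08, -1.45 to -0.73), which bind insulin-like growth factors, were lower, and the receptor IGF1R was at -0.81 (-1.11 to -0.51). FGFR3 was the higher one, with 87 UMIs in MYOG+ and 66 in PAX7+ MYOG- cells (1.49, 1.01 to 1.97), but with at least 2 MYOG UMIs required its log2 ratio was -0.34 (-1.53 to 0.67). IGFBP2 and IGFBP4 were then at -3.25 and -1.93.

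At the top of all genes with a symbol stood GnRH-I, the gonadotropin-releasing hormone gene, with 91 UMIs in MYOG+ cells and 1 in PAX7+ MYOG- cells (193-fold, log2 7.59, 5.08 to 12.91). CASS4, an adaptor of focal adhesions, followed with 110 UMIs in MYOG+ and 2 in PAX7+ MYOG- cells (6.87, 4.98 to 9.93). After MYMK and UNC45B came AKAP6, which organises the nuclear surface of muscle cells (73 UMIs in MYOG+, 3 in PAX7+ MYOG- cells), TRIM55, a sarcomere-associated ubiquitin ligase (163 in MYOG+, 7 in PAX7+ MYOG- cells), and AMPD3, an AMP deaminase (63 in MYOG+, 3 in PAX7+ MYOG- cells). MYBPH, SPTB4L (2643 in MYOG+, 151 in PAX7+ MYOG- cells) and the potassium channel gene KCNH6 (67 in MYOG+, 4 in PAX7+ MYOG- cells) completed the highest 10. SPTB4L was the abundant one among them, at 1640 CPM in MYOG+ and 44.1 CPM in PAX7+ MYOG- cells (5.22, 4.98 to 5.46).

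At the low end stood LMOD1, an actin nucleator of smooth muscle, with 2 UMIs in MYOG+ and 119 in PAX7+ MYOG- cells (-4.81, -7.87 to -2.92). The next were LRRC4C (1 UMI in MYOG+, 57 in PAX7+ MYOG- cells), chTLR1-type2 (1 in MYOG+, 49 in PAX7+ MYOG- cells), TLL2 (2 in MYOG+, 67 in PAX7+ MYOG- cells) and MSANTD1 (3 in MYOG+, 99 in PAX7+ MYOG- cells). The ligand gene NRG1 had 7 UMIs in MYOG+ and 204 in PAX7+ MYOG- cells (-3.78, -5.11 to -2.71), and FGF9 had 3 in MYOG+ and 84 in PAX7+ MYOG- cells (-3.72, -6.03 to -2.12). The sorting receptor gene SORL1 (4 in MYOG+, 99 in PAX7+ MYOG- cells) and the somatostatin receptor gene SSTR4 (3 in MYOG+, 69 in PAX7+ MYOG- cells) were also among the lowest 10. DIO2, whose enzyme activates thyroid hormone, had the most UMIs of these 10, at 13.7 CPM in MYOG+ cells against 153 CPM in PAX7+ MYOG- cells (-3.49, -4.18 to -2.88). Ratios of genes with few UMIs in a group moved by over 1.5-fold with the settings, as FGF9, which was at -5.19 without the PAX7+ cells among MYOG+ cells, and KCNH6, which was at 6.84 without CT marker cells.

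The MYOG+ cells were next ordered by their share of contractile UMIs. The rule used this measure through its limit of 5%, so the order is a description. In it the summed cycle genes ran downwards and the summed fusion and adhesion genes upwards. There were 648 cells under 0.5%, 139 at 0.5 to 1%, 205 at 1 to 2.5% and 39 at 2.5 to 5%. In this order the G2M sum was 10629, 3420, 1583 and 1195 CPM (916 to 1532 CPM in the last), and the S phase sum was 3935, 1365, 900 and 713 CPM. At 600 UMIs, at least 6 G2M UMIs were found in 39.1% of the cells under 0.5% (35.3 to 43.1%), and in 8.09%, 2.55% and 2.70% of the others. Of the 262 MYOG+ cells with at least 6 G2M UMIs, 245 had under 0.5% contractile UMIs, as did 626 of all 995 thinned MYOG+ cells.

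The fusion and adhesion list summed to 3168, 4545, 5742 and 6245 CPM in the same order. MYMK ran upwards, at 127, 528, 746 and 1022 CPM (765 to 1336 CPM in the last), as did MEF2C, at 22.4, 117, 182 and 520 CPM, DES, at 28.0, 147, 354 and 1156 CPM, and CDH15, at 174, 250, 347 and 540 CPM. RBM24 was lowest in the first step, at 3080 CPM, and stood at 4320, 4947 and 4819 CPM in the others. MYOD1 showed no such order, at 942, 1140, 897 and 1041 CPM. The progenitor list, which includes PAX7, summed to 3084, 2290, 1682 and 1619 CPM. In it, C1QTNF3 was at 430, 205, 59.6 and 0 CPM (up to 57.8 CPM by the limit of 3 counts), and FGFR4 at 505, 225, 144 and 57.8 CPM, while PAX7 showed no steady order, at 54.2, 24.5, 10.5 and 38.5 CPM (4.67 to 139 CPM in the last). The ID genes parted, with ID3 at 106, 48.9, 28.0 and 19.3 CPM and ID1 at 85.0, 9.78, 28.0 and 96.4 CPM (31.3 to 225 CPM in the last, from 5 UMIs). The summed CT genes were also highest in the first step, at 6528, 1336, 1934 and 964 CPM. Without the cells that had at least 2% CT gene UMIs, 572, 137, 202 and 38 cells remained, with a G2M sum of 11174, 3447, 1597 and 1094 CPM and MYMK at 138, 537, 761 and 1035 CPM.

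MYOG UMIs, a count the rule used, gave a second order, described here without a test. In cells with 1, 2 and 3 or more MYOG UMIs, the G2M sum was 8521, 7348 and 5449 CPM, the S phase sum 3449, 2481 and 1629 CPM, MYMK 209, 461 and 562 CPM and RBM24 3039, 4481 and 4866 CPM. Unlike in the contractile order, MYOD1 was lowest in the first group, at 833, 1162 and 1221 CPM. That group held 77 of the 82 MYOG+ cells with at least 2% CT gene UMIs. In these 82 cells the log2 ratio of MYOD1 to the other MYOG+ cells was -3.14 (-4.02 to -2.39). Their part in the MYOD1 order was not tested. ID1 was at 83.1, 54.4 and 8.33 CPM and ID3 at 102, 60.1 and 29.2 CPM. These groups differed in depth, with medians of 1342, 1546 and 1737 UMIs, so detection was compared at 600 UMIs a cell. ACTC1 was found in 85.9% of 135 cells with 3 or more MYOG UMIs and in 41.0% of 652 cells with 1, SPTB4L in 80.7% with 3 or more and 42.0% with 1, the actin-bundling gene PLS3 in 70.4% with 3 or more and 41.3% with 1, AHCY, an enzyme of the methylation cycle, in 77.8% with 3 or more and 48.9% with 1, and JAM3 in 71.9% with 3 or more and 44.8% with 1. These 5 genes had the largest differences in detection among genes with a symbol and at least 50 UMIs, with only MYOG left out. ACTC1 is a contractile gene of the rule, so its shares are a description. CT genes summed to 6607, 1980 and 1721 CPM in these groups, and Scrublet marked 14.1%, 6.54% and 3.68% of their cells.

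**Figure D3:**
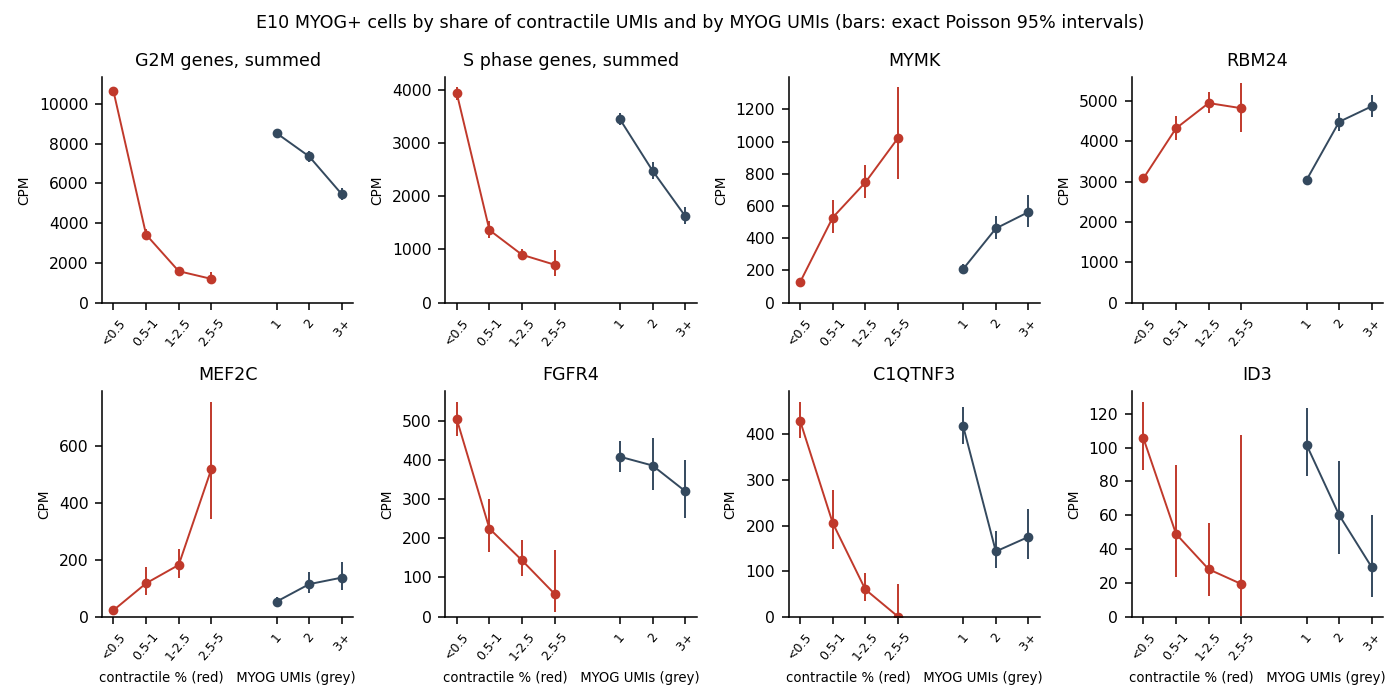
CPM with exact Poisson 95% intervals is drawn for the summed G2M and S phase genes and 6 genes in E10 MYOG+ cells, grouped by percent of contractile UMIs (red, left) and by MYOG UMIs (grey, right). G2M genes went down across contractile groups, to 1195 CPM in the last, and MYMK went up, to 1022 CPM.

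The 59 MYOG+ cells with a PAX7 UMI were compared with those without. PAX7 is the gene that chose the PAX7+ MYOG- cells, so this split is a description. C1QTNF3 was at 1177 CPM in cells with a PAX7 UMI and 251 CPM in the 972 without (log2 ratio 2.23, 1.94 to 2.51), FGFR4 at 609 CPM with and 373 CPM without (0.71, 0.34 to 1.06) and ID3 at 187 CPM with and 73.2 CPM without (1.35, 0.63 to 2.01). MYMK was at 130 CPM with and 332 CPM without (-1.35, -2.17 to -0.64), RBM24 at 2183 CPM with and 3743 CPM without (-0.78, -0.96 to -0.60), and the G2M sum at 10097 CPM with and 7620 CPM without. These cells were deeper, with a median of 2024 UMIs against 1379.5 in cells without PAX7, and Scrublet marked 27.1% of them against 10.2% of cells without. The part of joined droplets in these values was not tested.

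UMIs of CT genes were found in some MYOG+ cells. At least 1 of the 5 CT markers PRRX1, PDGFRA, TWIST2, OSR1 and SCX had a UMI in 13.7% of MYOG+ cells (11.6 to 15.9%) and 17.3% of PAX7+ MYOG- cells (15.7 to 18.9%), against 11.98% of the endothelial, leukocyte, ectoderm and blood cells (9.99 to 14.2%) and 68.5% of CT cells. At 600 UMIs, the shares were 7.94% of MYOG+ cells (6.34 to 9.80%), 7.72% of PAX7+ MYOG- cells (6.62 to 8.94%), 6.32% of the other types (4.81 to 8.13%) and 51.0% of CT cells. In MYOD1+ PAX7- MYOG- cells the share was 11.7% (10.3 to 13.2%), above the intervals of MYOG+ cells, PAX7+ MYOG- cells and the other types. The intervals of MYOG+ cells and of the other types overlapped, and among the other types the share ranged over 2.99% in leukocyte, 5.46% in blood, 6.97% in ectoderm and 12.8% in endothelial cells. Over 20 further draws, the share was 6.43 to 8.44% in MYOG+ cells, 7.34 to 8.66% in PAX7+ MYOG- cells and 4.51 to 7.0% in the other types.

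The 141 MYOG+ cells with a CT marker UMI were of different kinds. Of them, 54 had at least 2% of their UMIs from the 20 CT genes, and in 94.4% of these 54 cells a single MYOG UMI was the basis of the call. Their muscle genes were low, with MYOD1 at 83.4 CPM (33.5 to 172 CPM), RBM24 at 429 CPM and MYMK at 23.8 CPM, and no PAX7 UMI was found in them, which allows up to 35.7 CPM. The collagen gene COL3A1 was at 3038 CPM. It is 1 of the 20 CT genes that split the MYOG+ cells and chose the CT cells, so its levels in these groups are a description. CT cells had 17.7 CPM of MYOD1, 40.6 CPM of RBM24 and 4342 CPM of COL3A1. The other 87 cells, under 2% of CT genes, had MYOD1 at 515 CPM, RBM24 at 2471 CPM, MYMK at 179 CPM and COL3A1 at 764 CPM. Against the 890 MYOG+ cells with no CT marker, log2 ratios in these 87 cells were -1.07 (-1.38 to -0.77) for MYOD1, -0.69 (-0.83 to -0.55) for RBM24 and 1.89 (1.59 to 2.19) for COL3A1. The 890 cells were not limited to under 2% of CT genes, so the groups of these ratios were not filtered alike. The median depth of the 87 cells was 2085 UMIs against 1366 in cells with no CT marker, and Scrublet marked 44.8% of the 87 against 7.19% of cells with none. The part of joined droplets and free RNA in these cells was not tested.

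**Figure D4:**
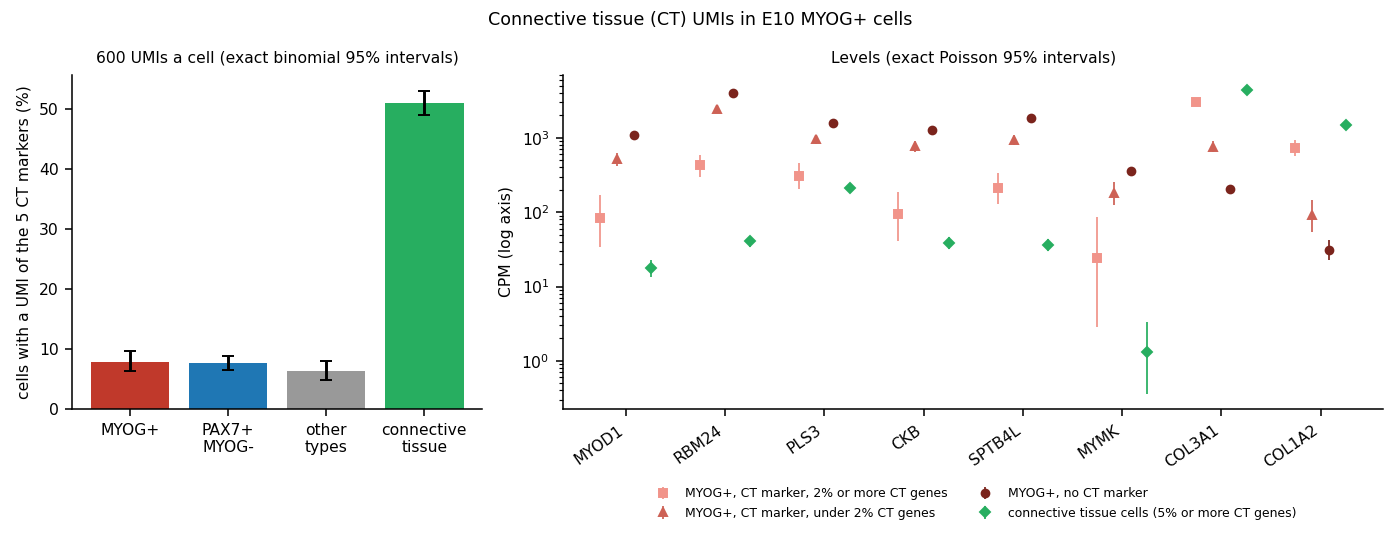
The left panel shows the percent of cells with a UMI of the 5 CT markers at 600 UMIs a cell, with exact binomial 95% intervals, in MYOG+ (7.94%), PAX7+ MYOG- (7.72%), other and CT cells of E10. The right panel shows CPM on a log axis with exact Poisson 95% intervals for 8 genes in MYOG+ cells split by CT marker and CT gene UMIs and in CT cells. Among the MYOG+ groups, muscle genes were lowest and COL3A1 highest in the 54 cells with at least 2% CT genes. COL3A1 and COL1A2 are among the CT genes that made this split, so their levels are a description. The CT cells include 16 of the MYOG+ cells.

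Markers of other cell types were low in MYOG+ cells. The 5 CT markers summed to 178 CPM in MYOG+ and 169 CPM in PAX7+ MYOG- cells, and all 5 had a UMI in MYOG+ cells. Endothelial genes, 2 of 9 of them at 0 in MYOG+ cells, summed to 25.4 CPM in MYOG+ and 35.3 CPM in PAX7+ MYOG- cells, against 640 CPM in the other types. Leukocyte genes (3 of 10 at 0) summed to 19.9 CPM in MYOG+ and 16.7 CPM in PAX7+ MYOG- cells, ectoderm genes (1 of 12 at 0) to 34.7 CPM in MYOG+ and 31.0 CPM in PAX7+ MYOG- cells, and Schwann and neural crest genes (2 of 9 at 0) to 25.4 CPM in MYOG+ and 14.0 CPM in PAX7+ MYOG- cells. Blood genes were at 521 CPM in MYOG+ and 1041 CPM in PAX7+ MYOG- cells. Smooth muscle genes, a list that holds HEYL and LMOD1, were at 121 CPM in MYOG+ cells and 343 CPM in PAX7+ MYOG- cells. The summed 20 CT genes were at 4876 CPM in MYOG+ cells and 4213 CPM in PAX7+ MYOG- cells, below the 5759 CPM of the other types. These genes reached at least 2% of the UMIs in 82 of 1031 MYOG+ cells and in 76 of 2161 PAX7+ MYOG- cells, so this share was larger in MYOG+ cells. MYOD1 was at 117 CPM in the 82 MYOG+ cells and 1030 CPM in the 949 other MYOG+ cells. MYMK was at 33.4 CPM in the 82 cells and 339 CPM in the 949 others.

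The same rule gave 0 MYOG+ cells of 5346 kept cells at E4 (upper limit 0.0561%), 60 of 4270 at E6 (1.41%, 1.07 to 1.81%) and 1031 at E10. PAX7+ MYOG- cells were 45, 189 and 2161. Each stage is 1 library, so stage and library cannot be told apart, and a median E6 MYOG+ cell was deeper, with 2819 UMIs. At E10 and E6 the genes in the next sentence differed between MYOG+ and PAX7+ MYOG- cells in the same direction. The log2 ratios at E10 and E6 were 6.50 and 5.93 (4.49 to 7.85) for MYMK, 4.22 and 3.58 (3.34 to 3.81) for RBM24, 1.74 and 2.44 (2.17 to 2.72) for MYOD1, 3.83 and 3.84 (2.57 to 5.30) for MEF2C, -2.60 and -2.79 (-3.71 to -2.00) for C1QTNF3 and -1.72 and -1.28 (-1.84 to -0.77) for ID3. Among these genes, the E10 and E6 intervals did not overlap for RBM24 and MYOD1. The E10 ratio was the larger one for RBM24 and the smaller one for MYOD1. CKB was also further apart at E10, at 3.79 (3.61 to 3.97) against 3.16 (2.94 to 3.38) at E6. So was RBM38, at 3.90 (3.59 to 4.23) against 2.99 (2.42 to 3.58) at E6. For SEMA6B the E10 and E6 ratios were 3.49 (3.22 to 3.77) and 2.03 (1.28 to 2.78). NRG1 was at -3.78 (-5.11 to -2.71) at E10 and -0.51 at E6, where the interval includes 0 (-2.23 to 0.86). RBM38, SEMA6B and NRG1 were named here after their values were seen. FGFR4 differed in sign, at -0.41 (-0.55 to -0.28) at E10 and 0.17 at E6, where the interval includes 0 (-0.16 to 0.48). The same held for CCND2, at -0.63 (-0.87 to -0.40) at E10 and 0.10 (-0.71 to 0.84) at E6.

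Of 2881 genes with at least 50 UMIs at each stage, 101 (3.51%) were at least 2-fold higher in MYOG+ cells at E10 and 97 (3.37%) at E6, and 62 were higher at both, or 61.4% of the E10 and 63.9% of the E6 genes. At least 2-fold lower were 133 (4.62%) at E10 and 284 (9.86%) at E6, with 60 at both, or 45.1% of the E10 and 21.1% of the E6 genes. With only 60 MYOG+ cells at E6, genes near the minimum had few UMIs in them. The part of this in the E6 counts was not tested. No gene was 2-fold apart in opposite directions. The cycle genes differed between the stages. The G2M sum was 7809 CPM in MYOG+ and 7974 CPM in PAX7+ MYOG- cells at E10, against 4044 CPM in MYOG+ and 7214 CPM in PAX7+ MYOG- cells at E6. The log2 ratios were -0.03 (-0.06 to 0.00) at E10 and -0.83 (-0.95 to -0.72) at E6. S phase genes had log2 ratios of -0.57 at E10 and -0.94 (-1.10 to -0.79) at E6. A PAX7 UMI was found in 5.72% of MYOG+ cells at E10 and in 15% at E6 (7.10 to 26.6%), and a MYOD1 UMI in 63.2% at E10 and 80.0% at E6 (67.7 to 89.2%), at unequal depth.

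**Figure D5:**
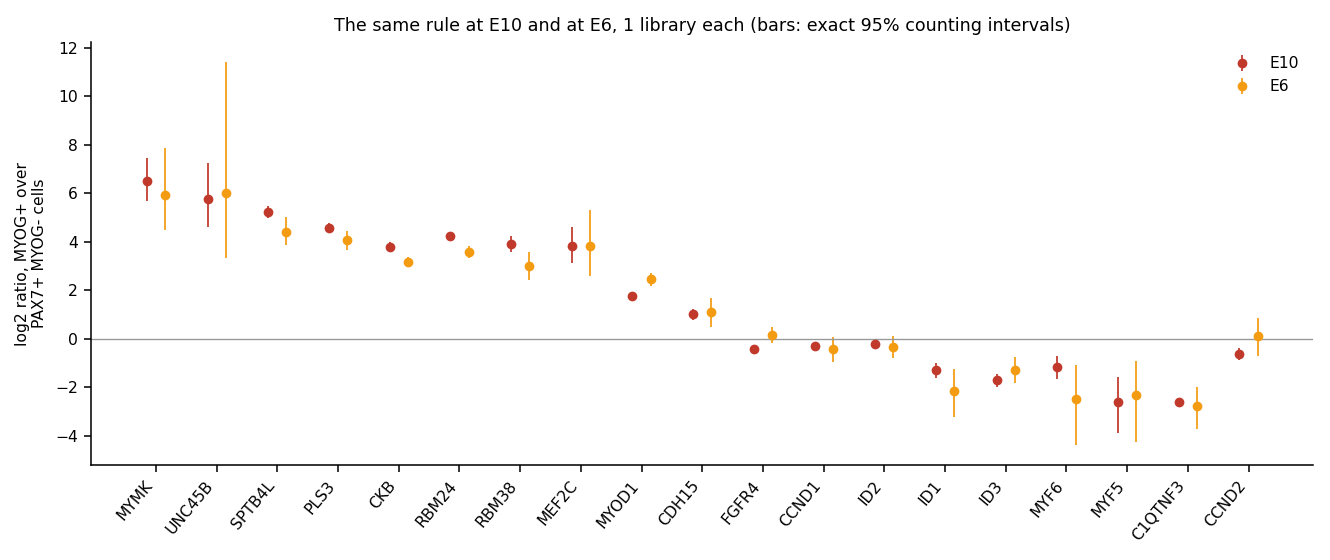
Log2 CPM ratios of MYOG+ over PAX7+ MYOG- cells, with exact 95% intervals, are drawn for 19 genes at E10 (red) and E6 (orange), 1 library each. MYMK, at 6.50 and 5.93, and C1QTNF3, at -2.60 and -2.79, lay on the same side of 0 at both stages.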

How the data were processed

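Chicken forelimbs of 3 stages (E4, E6, E10) were profiled with the Chromium 3' v3 kit. The authors deposited raw UMI counts per gene and barcode, made with Cell Ranger 3.0.2 (file header) and STAR on GRCg6a, for 6794880 barcodes per library (864672 with a UMI at E10), with no filter or normalisation. The labels give the stage of each library.

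The limits of at least 450 UMIs and at most 16% mitochondrial UMIs, the MYOG+ rule and the gene lists were chosen with earlier results of these data known. MYL4 and 22 other identifiers were named from the study's supplement. UMIs were summed per group as CPM. Levels have exact Poisson, shares exact binomial (Clopper-Pearson) and ratios exact conditional binomial 95% intervals, and a count of 0 was given a limit of 3 counts. Thinning drew 600 UMIs a cell with a fixed seed. Cells of other types had at least 4 UMIs of an endothelial, leukocyte or ectoderm list or at least 20% blood UMIs, limits set after values were seen. These cells and the CT cells were taken from all kept cells, so MYOG+ cells were not left out of them. A ratio was computed for genes with at least 50 UMIs over both groups. Named by rule were the fixed muscle genes and ID genes, the 4 genes with most UMIs of each list, the 10 highest and 10 lowest ratios among genes with a symbol and the 5 genes whose detection differed most by MYOG UMIs. Other list genes were named after their values were seen. One gene of the progenitor list is not reported here by name, and PAX3, MYMX and CDKN1C were not used here.

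Python 3.11.15 was used with scanpy 1.11.5 (Scrublet), scipy 1.17.1, matplotlib 3.10.9, numpy 2.4.6 and pandas 2.3.3. The ratios and their intervals were tested on simulated counts drawn without variation between cells. The doublet scores, shares of cells and groupings were not simulated. With a median of 1411 UMIs in MYOG+ cells, shares of cells with a UMI depend on depth and can include free RNA. Alternatives were run for each limit of the rule, the doublet scores, PAX7 and CT UMIs, thinning, scaling, the UMI minimum and the fold limit.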

Additional observations from a re-analysis of the deposited data

How the results depend on the processing

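The comparison of MYOG+ with PAX7+ MYOG- cells moved most with the MYOG minimum. With 2 MYOG UMIs, 350 cells (1.37%) were left, 1251 genes were at least 2-fold lower, the log2 ratio was -1.05 for S phase and -0.28 for G2M genes, and MYOD1 was found in 77.7%, PAX7 in 4.00%, MYMK in 46.0% and CT markers in 6.57% of cells. The log2 ratio of FGFR3 reversed to -0.34. At 600 UMIs a cell, the rule gave 547 cells (2.33%). The other values at this depth are of the groups chosen at full depth, with 995 MYOG+ and 2125 PAX7+ MYOG- cells. In them, 367 genes were lower, and the log2 ratio was -0.66 for S phase and -0.0882 for G2M genes. MYOD1 was found in 41.0% of MYOG+ and 13.2% of PAX7+ MYOG- cells, PAX7 in 2.41%, MYMK in 16.2% and CT markers in 7.94% and 7.72%. With at least 1000 UMIs, MYOG+ cells were 5.37%, the G2M ratio was 0.0044, MYOD1 was in 68.9% and 28.6%, and CT markers were in 19.6% of PAX7+ MYOG- cells. Without the highest Scrublet scores, MYOG+ cells were 4.51%, the G2M ratio was -0.0626 and CT markers were in 9.83% and 13.9%. A contractile limit of 2.5% gave 0.0099 for G2M genes, and MYOG+ cells without PAX7 gave -0.63 for S phase and -0.0656 for G2M genes. Without CT marker cells, MYOD1 was in 67.3%. Without cells of at least 2% CT gene UMIs, an alternative chosen after seeing the data, MYOG+ cells were 3.72%, MYOD1 was in 67.8% and CT markers in 9.17% and 15.4%. The counts were 354 lower genes with at least 100 UMIs, 546 higher and 953 lower with at least 20, and 692 and 1387 at 1.5-fold. Named genes kept within their interval in 669 cases, moved in 81 and reversed in 1. The cause of each move was not tested. No paired analysis was possible because each stage is 1 library with no replicate number. Depth limits every share of cells.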

Other observations

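The following genes lie outside the lists and were chosen after their values were seen, for their many UMIs. PENK, the enkephalin precursor gene, was at 6494 CPM in E10 MYOG+ cells and 1248 CPM in PAX7+ MYOG- cells, a log2 ratio of 2.38 (2.33 to 2.43). TMSB15B, an actin monomer-binding thymosin, was at 6370 CPM in MYOG+ and 989 CPM in PAX7+ MYOG- cells (2.69, 2.63 to 2.74), and WIPF1, which binds the actin regulator WASP, at 943 CPM in MYOG+ and 148 CPM in PAX7+ MYOG- cells (2.67, 2.52 to 2.82). The semaphorin gene SEMA6B (3.49, 3.22 to 3.77) and CRYAB, a small heat shock protein of muscle (3.29, 2.99 to 3.61), were higher too.

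Some genes of the extracellular matrix, also chosen after their values were seen, were lower in MYOG+ cells. COL3A1 went the other way, at 417 CPM in MYOG+ and 244 CPM in PAX7+ MYOG- cells (0.77, 0.62 to 0.92). Of its 672 UMIs in MYOG+ cells, 400 lay in the 82 cells with at least 2% CT gene UMIs. The basement membrane collagen gene COL4A1 was at 239 CPM in MYOG+ cells and 1180 CPM in PAX7+ MYOG- cells (-2.30, -2.46 to -2.15), COL4A2 at 23.6 CPM in MYOG+ and 131 CPM in PAX7+ MYOG- cells (-2.48, -3.00 to -2.00) and the laminin gene LAMA4 at 27.3 CPM in MYOG+ and 142 CPM in PAX7+ MYOG- cells (-2.38, -2.86 to -1.93). The ligand gene PDGFA (-2.23, -2.43 to -2.04), the Wnt antagonist gene SFRP2 (-2.17, -2.44 to -1.91), the actin-binding gene COTL1 (-2.67, -2.84 to -2.51) and the homeobox gene DBX1 (-3.12, -3.68 to -2.60) were lower as well. Among the genes compared, 824 had no symbol in the sources used here, and 48 of these were at least 2-fold higher and 83 lower. Over all 7131 genes, these shares were 4.87% higher and 8.29% lower, so the counts are no result about genes without a symbol.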
